A study of Mus musculus with 12 samples.

Results

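The iron and heme handling genes are 10 genes that carry iron into a macrophage, store it, take it out of heme and pass it back out of the cell: Slc40a1, Tfrc, Fth1, Ftl1, Hmox1, Blvra, Slc11a1, Slc11a2, Ireb2 and Steap3. They are taken by name, and were found by matching the Ensembl identifiers of the deposited counts to mouse gene symbols, which gave 1 identifier for each of the 10 genes among 56941. A further 65 genes of iron and heme metabolism were set beside them. RNA was sequenced in 12 libraries from macrophages grown from bone marrow monocytes of C57BL/6J mice. Mice heterozygous for a deletion of miR-210, which came from a cross of floxed miR-210 mice with Gata-1 Cre mice, were bred with each other to give animals without miR-210 (knockout, KO) and with it (wild-type, WT). Monocytes grew for 7 days in 20% fetal bovine serum and 30% conditioned medium of L929, a fibroblast line from mice that releases the growth factor M-CSF, and so became macrophages. The M2 cultures then received 20 ng/mL IL-4 for 72 hours, and the M0 control wells were kept in the same conditions without IL-4. This gave 4 groups of 3 libraries, WT M0, KO M0, WT M2 and KO M2. Within a group the columns carry the numbers 1 to 3, which are not tied to a sample. No label used here says that the 3 came from separate animals or cultures. The p-values therefore measure the spread between these libraries, which may be technical. The batch field of the labels holds a value for each group that repeats the name of the group. Whether the groups were processed apart is not stated, and such an effect could not be told apart from one of group.

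Macrophages are the main recyclers of iron in the body. They engulf aged red blood cells, open the heme ring with heme oxygenase 1 (Hmox1), reduce the biliverdin this leaves with biliverdin reductase A (Blvra), and move the freed iron across the phagosome membrane with Nramp1 (Slc11a1) and DMT1 (Slc11a2). Iron is either stored in ferritin, a shell built of heavy (Fth1) and light (Ftl1) chains, or released through ferroportin (Slc40a1), the only known cellular iron exporter. Iron also enters on transferrin through the transferrin receptor (Tfrc), and Steap3 reduces it in the endosome so that DMT1 can carry it out. When iron is scarce, the iron regulatory proteins IRP1 (Aco1) and IRP2 (Ireb2) bind stem-loops called iron-responsive elements. Binding in a 5′ UTR holds back translation, and binding in a 3′ UTR protects the mRNA from decay.

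Because these elements act on the message itself, the members were searched for them. The search covered the UTRs of the canonical transcript of every protein-coding gene (GENCODE annotation of GRCm39), on the transcript strand. It looked for a C, 5 bases, the loop CAGTGN and 5 bases able to pair with the first 5, with G paired to T allowed. A match was found in 4 of the 10 members. Fth1, Ftl1 and Slc40a1 had 1 match each in the 5′ UTR, and Tfrc had 4 in the 3′ UTR. They are shown here because the iron regulatory proteins are known to set the stability or translation of these 4 messages, with the 6 loop bases in capitals.
Fth1, 5′ UTR, + strand, chr19:9960096-9960124: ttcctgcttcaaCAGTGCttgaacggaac
Ftl1, 5′ UTR, - strand, chr7:45109203-45109231: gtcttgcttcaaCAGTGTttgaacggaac
Slc40a1, 5′ UTR, - strand, chr1:45964625-45964653: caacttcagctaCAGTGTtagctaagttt
Tfrc, 3′ UTR, + strand, chr16:32450037-32450065: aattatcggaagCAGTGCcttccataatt
Tfrc, 3′ UTR, + strand, chr16:32450416-32450444: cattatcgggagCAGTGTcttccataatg
Tfrc, 3′ UTR, + strand, chr16:32450481-32450509: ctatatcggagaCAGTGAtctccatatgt
Tfrc, 3′ UTR, + strand, chr16:32450528-32450556: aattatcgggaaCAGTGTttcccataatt
The same letters were found in 0.116% of 20752 5′ UTRs and in 0.601% of 20802 3′ UTRs. A match is a description of these letters and no measure of binding, and the other 6 members may carry elements of another form or in another transcript, as Slc11a2 is known to do in the 3′ UTR of one of its isoforms.

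The deleted microRNA was set against the same UTRs. The mature sequence (RefSeq, GRCm38.p6) is shown with bases 2 to 8, its seed, in capitals, together with the one site in Iscu, which encodes the iron-sulfur cluster scaffold and is a long-known miR-210 target, where the capitals mark the complement of the seed.
mmu-miR-210-3p: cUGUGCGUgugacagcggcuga
Iscu, 3′ UTR, + strand, chr5:113916040-113916068: agctacgcaaaACGCACActattcaccac
The seed complement ACGCACA was found in the 3′ UTR of 0 of the 10 members and of 5 of the 65 other genes, namely Abcg2, Hmox2, Isca1, Iscu and Slc25a37. It was found in 3.49% of all 3′ UTRs. Only exact matches in the 3′ UTR of canonical transcripts were counted. A gene without one may still be a target through a site of another form or in another transcript.

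The libraries held between 7930525 and 10167695 counts. Mir210, the gene of the precursor, held 0 counts in each of the 6 KO libraries, against 1, 3 and 5 in those of WT M0 and 1, 2 and 1 in those of WT M2. The 7 macrophage markers summed to between 3610 and 4560 CPM (counts scaled to a common library size of 1000000) in every library. Single markers moved within this sum. With IL-4, Fcgr1 fell from a mean of 499 to 63.4 CPM in WT and from 335 to 55.4 in KO. Mertk fell from 203 to 80.1 CPM in WT and from 185 to 99.0 in KO, while Itgam rose from 279 to 425 and from 345 to 398. The 4 genes of the IL-4 response summed to between 1540 and 2090 CPM in M0 and between 6440 and 7030 in M2. The 9 matched erythroid markers, which matter for heme genes, summed to 0.71 to 5.09 CPM in WT M0, 0.557 to 1.33 in KO M0, 0.354 to 5.58 in WT M2 and 0.376 to 1.1 in KO M2. Lymphocyte and mast cell markers stayed at or under 0.248 CPM in sum, with 4 of 6 and 2 of 5 at 0 throughout, neutrophil markers at or under 5.58, with 1 of 8 at 0, and fibroblast markers at or under 2.29, with 0 of 5 at 0. The 5 dendritic cell markers moved with IL-4, from at most 0.952 CPM in M0 to between 10.1 and 18.1 in M2, nearly all of it Zbtb46, and their part in the results was not tested. In these bulk cultures, fewer cells of a type and less RNA per cell cannot be told apart.

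All 10 genes were expressed in all 12 libraries and passed the filter on low counts in every comparison. Compared per kilobase of canonical transcript, the ferritin chains were far above the other members. In WT M0, Fth1 stood at 1649 ± 149 CPM per kb (SD, n = 3) and Ftl1 at 1517 ± 182, places 8 and 10 among 11383 protein-coding genes, and their libraries overlapped. Hmox1 followed at 171 ± 9.7, Slc40a1 at 116 ± 6.5 and Slc11a1 at 84.1 ± 4.1, each above the next in every library. Blvra (50.4 ± 1.2), Tfrc (46.0 ± 7.9) and Slc11a2 (40.4 ± 2.0) came next, and neighbours among these 3 overlapped. Ireb2 was at 24.7 ± 1.3 and Steap3 lowest at 8.88 ± 0.35 CPM per kb. KO M0 gave the same order except that Ftl1 and Fth1, and Tfrc and Blvra, changed places, and the libraries overlapped within both pairs.

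IL-4 reordered the middle and the bottom of this list. In WT M2, Tfrc ranked next after the ferritins at 178 ± 14 CPM per kb and Slc40a1 was last at 10.2 ± 0.25, below Steap3 at 14.3 ± 0.17. In KO M2, Slc40a1 at 14.6 ± 0.96 CPM per kb was also last, but its libraries overlapped those of Steap3 at 14.8 ± 0.16. Ftl1 was above Fth1 in every library of both M2 groups. Places depend on the length used: with all annotated exons merged, for example, Slc11a1 and Slc40a1 changed places in M0, and Ftl1 stood clearly above Fth1 in WT M0, at 1096 against 435 CPM per kb. Ftl1 shares 80.2% of its 50-base stretches with other genes, among them the copy Ftl1-ps1, so its level is less certain than the others.

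**Figure D1:**
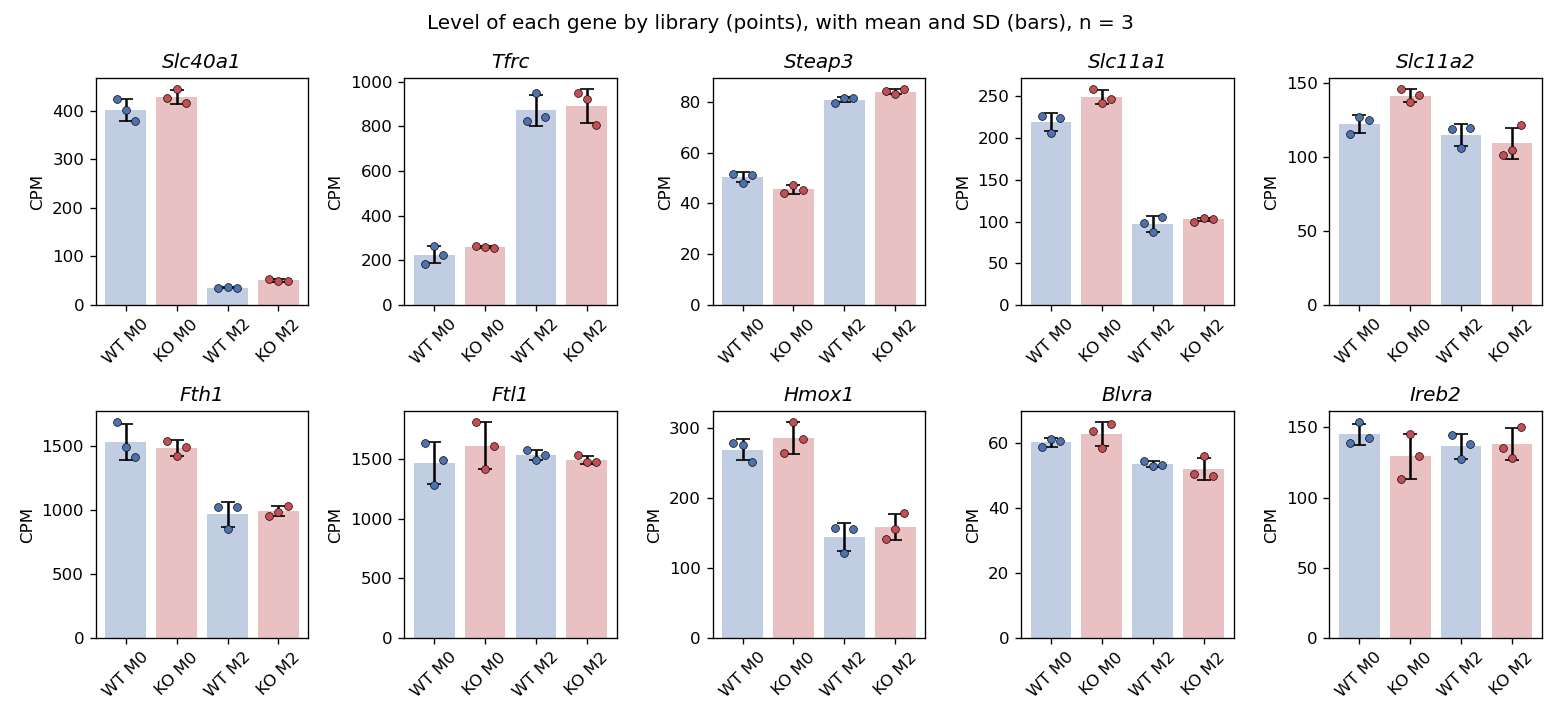
CPM of each of the 10 genes in the 4 groups, with a point for each library, bars for the mean and error bars for the SD of 3 libraries (WT blue, KO red). With IL-4, Slc40a1 falls from 379 or more to 54.5 CPM or less and Tfrc rises from 266 or less to 806 or more, while Ftl1 and Ireb2 stay within overlapping ranges.

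The first question was how IL-4 polarization moved these genes within each genotype. In WT, 6 of the 10 members changed, with Tfrc and Steap3 higher and Slc40a1, Slc11a1, Hmox1 and Fth1 lower in M2. In KO the same 6 changed in the same directions, and Slc11a2 and Blvra were lower too. Calls required a change of more than 1.2-fold and an adjusted p under 0.05 in the quasi-likelihood test of edgeR, adjusted over all genes tested by the Benjamini-Hochberg method. These limits also called 23.6% of 11135 genes higher and 21.8% lower in WT, and 18.5% of 11116 genes higher and 18.1% lower in KO, so the 2 higher of 10 in each genotype are a share close to that of all genes, and the 4 lower of 10 in WT and 6 lower of 10 in KO are larger shares. The median log2 fold change of the members was -0.13 in WT and -0.32 in KO, and that of all genes 0.0053 and -0.013. The members were chosen with earlier results of these data known, so these shares and medians are a description and no test. The 6 lower in KO include Blvra, which was called in only 6 of 13 alternatives.

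The largest change was that of the exporter. Slc40a1, at chr1:45947211-45965683, had 424, 402 and 379 CPM in WT M0 against 34.4, 36.1 and 35.5 in WT M2. The KO libraries had 427, 444 and 416 CPM in M0 and 54.5, 48.6 and 48.8 in M2. The M2 libraries lay far below all M0 libraries in both genotypes. Slc40a1 was 11.3-fold lower in WT M2 (log2 fold change -3.50 ± 0.07 SE, edgeR adjusted p = 7.77e-13) and 8.47-fold lower in KO M2 (-3.08 ± 0.08, edgeR adjusted p = 6.14e-11).

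Of the 3 members on the route of transferrin-bound iron, Tfrc and Steap3 rose, while Slc11a2, described with the metal transporters, was lower in KO and not called in WT. Tfrc, at chr16:32427556-32451612, had 186, 263 and 226 CPM in WT M0 against 826, 952 and 841 in WT M2. In KO it had 266, 261 and 255 CPM in M0 and 948, 921 and 806 in M2. Every M2 library was above every M0 library, and the WT M0 libraries were the most scattered relative to their mean. The rise was 3.89-fold in WT (log2 fold change 1.96 ± 0.11 SE, edgeR adjusted p = 6.46e-09) and 3.43-fold in KO (1.78 ± 0.08, edgeR adjusted p = 4.36e-09). The ratio of Tfrc to Slc40a1 per kilobase went from 0.399 ± 0.079 (SD, n = 3) in WT M0 to 17.5 ± 1.0 in WT M2, and from 0.429 ± 0.013 in KO M0 to 12.5 ± 0.87 in KO M2, and the WT M2 and KO M2 ratios did not overlap. With merged exons as the length, Tfrc and Slc40a1 in WT M0 stood closer, at 31.8 and 42.6 CPM per kb, and the fold change of the ratio is the same.

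Steap3, the endosomal ferrireductase at chr1:120118487-120200435, was the least abundant member in M0. It had 51.6, 48.0 and 51.1 CPM in WT M0 against 79.7, 81.4 and 81.3 in WT M2. Its levels in KO were 44.0, 47.4 and 45.3 CPM in M0 and 84.0, 83.0 and 84.9 in M2. The M0 and M2 libraries did not overlap in either genotype. Steap3 rose by 0.69 ± 0.07 on the log2 scale in WT (edgeR adjusted p = 1.72e-06) and by 0.88 ± 0.08 in KO (edgeR adjusted p = 1.81e-06).

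The ferritin chains parted. Fth1, the heavy chain with the ferroxidase site, at chr19:9957911-9962462, had 1686, 1493 and 1417 CPM in WT M0 against 1022, 852 and 1025 in WT M2. In KO the gene had 1540, 1422 and 1490 CPM in M0 and 955, 983 and 1032 in M2. No M2 library reached an M0 library. Fth1 was 1.58-fold lower in WT M2 (log2 fold change -0.66 ± 0.09 SE, edgeR adjusted p = 3.57e-05) and 1.50-fold lower in KO M2 (-0.58 ± 0.07, edgeR adjusted p = 3.24e-05).

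Ftl1, the light chain, which helps the iron core form, at chr7:45107367-45109308, had 1635, 1284 and 1491 CPM in WT M0 against 1580, 1492 and 1534 in WT M2. In KO it had 1809, 1414 and 1614 CPM in M0 and 1532, 1472 and 1473 in M2. The groups overlapped in both genotypes and the gene was not called, at a log2 fold change of 0.07 ± 0.08 SE in WT and -0.11 ± 0.09 in KO (edgeR adjusted p = 0.527 and 0.380). Adding the counts of its 4 closest copies left it not called in both. Within a library, the ratio of Fth1 to Ftl1 per kilobase was 1.09 ± 0.11 (SD, n = 3) in WT M0 and 0.656 ± 0.053 in WT M2, and 0.967 ± 0.081 in KO M0 and 0.692 ± 0.040 in KO M2, without overlap between M0 and M2. The size of this ratio depends on the lengths used, as given above, and its fold change between M0 and M2 does not.

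The genes of heme breakdown fell or did not pass the test. Hmox1, which opens the heme ring and frees its iron, at chr8:75820241-75827217, had 280, 277 and 252 CPM in WT M0 against 157, 122 and 156 in WT M2. The KO libraries had 264, 309 and 285 CPM in M0 and 142, 156 and 180 in M2. All M2 libraries were below all M0 libraries. The decrease was 1.85-fold in WT (log2 fold change -0.89 ± 0.09 SE, edgeR adjusted p = 3.11e-06) and 1.80-fold in KO (-0.85 ± 0.10, edgeR adjusted p = 1.84e-05).

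Blvra, which turns biliverdin into bilirubin, at chr2:126912556-126939017, had 58.6, 61.2 and 60.7 CPM in WT M0 against 54.5, 52.8 and 53.2 in WT M2. Its levels in KO were 63.8, 58.5 and 65.7 CPM in M0 and 50.3, 56.1 and 49.8 in M2. M2 was below M0 without overlap in both genotypes, but by little. The log2 fold change was -0.17 ± 0.07 SE in WT, not called (edgeR adjusted p = 0.0618), and -0.26 ± 0.09 in KO, called (edgeR adjusted p = 0.0344) at the edge of both limits. The call in KO was lost in 7 of 13 alternatives, with an adjusted p of 0.0833 in the DESeq2 Wald test. It was also lost without KO M0 library 1, KO M0 library 3, KO M2 library 1 or KO M2 library 3, at adjusted p of 0.0604, 0.0967, 0.139 and 0.0904, and with RLE normalization, where the log2 fold change was -0.26, just inside the limit. The interaction of Blvra was -0.09 ± 0.10 SE (edgeR adjusted p = 0.828), so a difference between the genotypes was not shown.

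Of the divalent metal transporters, Slc11a1 fell in both genotypes and Slc11a2 was called in KO alone. Slc11a1, the phagosomal transporter of macrophages at chr1:74414303-74425448, had 226, 206 and 224 CPM in WT M0 against 98.0, 87.0 and 106 in WT M2. In KO the gene had 258, 242 and 247 CPM in M0 and 100.0, 104 and 103 in M2. Every M2 library was far below every M0 library. Slc11a1 was 2.25-fold lower in WT M2 (log2 fold change -1.17 ± 0.08 SE, edgeR adjusted p = 3.67e-08) and 2.43-fold lower in KO M2 (-1.28 ± 0.07, edgeR adjusted p = 3.10e-08). These are levels of RNA. Whether these mice make a working Nramp1 protein, and how much iron it moves, was not tested.

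Slc11a2, the transporter of endosomes and the gut, at chr15:100285776-100322953, had 115, 127 and 125 CPM in WT M0 against 118, 106 and 120 in WT M2, and these overlapped. In KO it had 145, 137 and 141 CPM in M0 and 101, 105 and 121 in M2, without overlap. It was called in KO only, at a log2 fold change of -0.37 ± 0.08 SE (edgeR adjusted p = 0.00420) against -0.09 ± 0.07 in WT (edgeR adjusted p = 0.324). The difference between these changes did not pass its own test, given with the interaction.

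Ireb2, which encodes IRP2, at chr9:54770970-54820011, had 139, 154 and 142 CPM in WT M0 against 145, 127 and 138 in WT M2. The KO libraries had 113, 146 and 129 CPM in M0 and 136, 128 and 151 in M2. M0 and M2 overlapped in both genotypes. It was not called in either genotype, at a log2 fold change of -0.08 ± 0.07 SE in WT (edgeR adjusted p = 0.382) and 0.09 ± 0.10 in KO (edgeR adjusted p = 0.521). Its protein is known to bind the messages of Tfrc, Slc40a1, Fth1 and Ftl1. Tfrc, Slc40a1 and Fth1 changed in both genotypes and Ftl1 was not called in either, and a part of IRP2 in this was not tested.

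**Figure D2:**
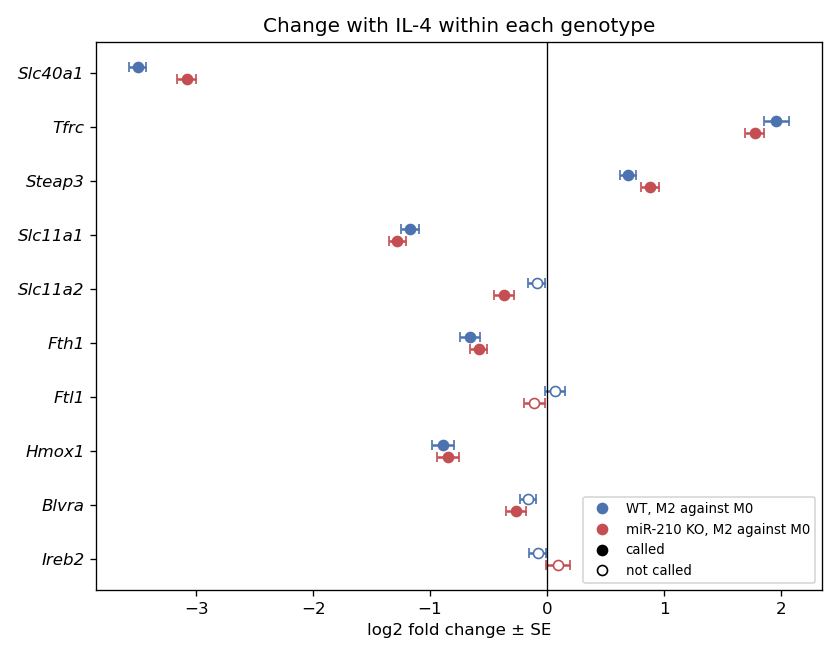
The log2 fold change of M2 against M0 for each gene, in WT (blue) and KO (red), with its SE from edgeR on 3 libraries a group. Filled points are called and open points are not, Slc40a1 is lowest at -3.50 and -3.08, and Tfrc highest at 1.96 and 1.78.

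The second question was whether loss of miR-210 moved these genes. In M0 it moved 0 of the 10 past the limits, beside 0.22% of 14089 genes called higher and 0.241% called lower. The DESeq2 Wald test also called 0 members. At an unadjusted p under 0.05 there were 2 of 10 members and 1410 genes in all. The median log2 fold change of the members was 0.09, and that of all genes 0.00050. In 3 members the libraries did not overlap, but the share of all genes without overlap was not computed, so this count cannot be judged. Slc11a1 and Slc11a2 were higher in all 3 KO libraries and Steap3 lower. Their log2 fold changes were 0.19 ± 0.08 SE, 0.21 ± 0.08 and -0.14 ± 0.08 (edgeR adjusted p = 0.440, 0.385 and 0.648). Slc40a1 differed by 0.10 ± 0.08 and Tfrc by 0.21 ± 0.11 on the log2 scale (edgeR adjusted p = 0.753 and 0.591).

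In M2, 1 of the 10 members was called higher in KO and 0 lower, beside 0.408% of 13980 genes called higher and 0.572% called lower. This member was Slc40a1. Its 3 KO M2 libraries, at 54.5, 48.6 and 48.8 CPM, were all above the 3 WT M2 libraries, at 34.4, 36.1 and 35.5. Slc40a1 was 1.44-fold higher in KO M2 (log2 fold change 0.52 ± 0.08 SE, edgeR adjusted p = 0.00238). It was called in all 13 alternatives, with log2 fold changes from 0.47 to 0.55 and adjusted p from 1.58e-06 to 0.0277. Both M2 groups still lay far below the lowest M0 library, at 379 CPM.

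The other 9 members were not called in M2. Steap3 was higher in all 3 KO libraries than in any WT library, but by only 0.06 ± 0.06 SE on the log2 scale (edgeR adjusted p = 0.810). Hmox1 differed by 0.14 ± 0.10 (edgeR adjusted p = 0.672), and the other 7 lay between -0.07 and 0.09 with overlapping libraries.

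Whether the IL-4 change itself differed between genotypes was tested as an interaction over all 12 libraries. edgeR called 0 members, and 0% of all 14825 genes, although 3 members and 1327 genes had an unadjusted p under 0.05. The DESeq2 Wald test called 83 genes, 1 member among them. That member was Slc40a1, whose fitted interaction was 0.42 ± 0.10 SE on the log2 scale, a lesser decrease in KO. Its unadjusted p was 0.000684 and its adjusted p 0.141 in edgeR, and the DESeq2 Wald test gave an adjusted p of 0.0374. Over the 18 alternatives the adjusted p lay between 0.0374 and 0.370, and the DESeq2 test was the one alternative that called it. Slc11a2 had an interaction of -0.28 ± 0.11 (edgeR adjusted p = 0.445) and Steap3 of 0.20 ± 0.09 (edgeR adjusted p = 0.551).

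**Figure D3:**
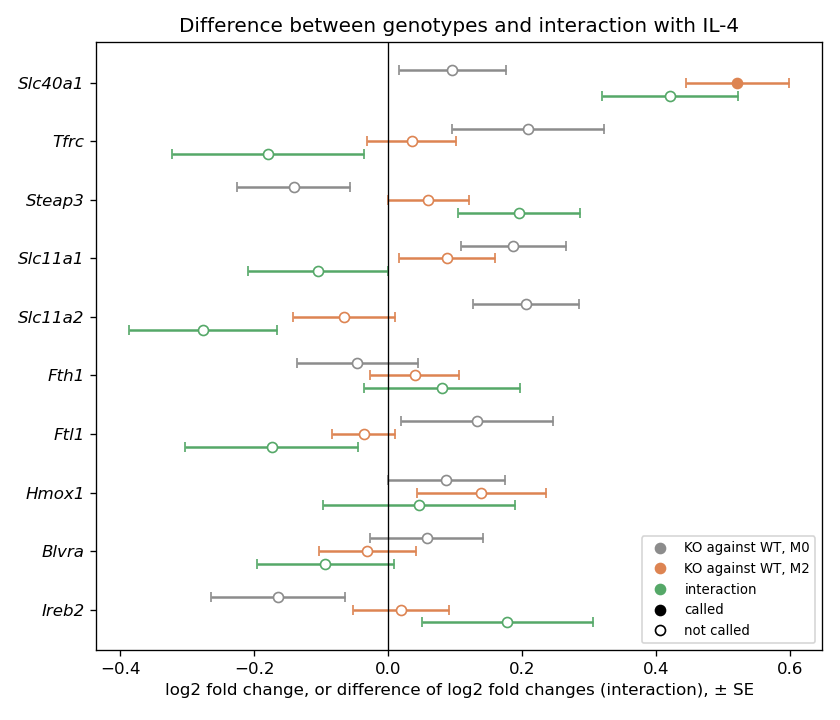
The log2 fold change of KO against WT in M0 (grey) and M2 (orange) and the interaction of genotype with IL-4 (green) for each gene, with SEs from edgeR. The 1 filled point, Slc40a1 in M2 at 0.52, is the 1 call, and the remaining points are open.

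The 65 other iron and heme genes were treated the same way. Of these, 14 were not tested in either polarization comparison because of low counts, among them hepcidin (Hamp), which had at most 1 count in any library, and Alas2, the erythroid heme synthesis enzyme, with at most 7. In WT, 12 of 50 tested rose and 13 fell in M2, and in KO, 10 of 51 rose and 17 fell. Of all genes, 23.6% were called higher and 21.8% lower in WT, and 18.5% and 18.1% in KO. The counts of the single lists below stand beside the same shares, and the lists are short. The 2 genotypes shared 20 of these calls, which are 80% of those of WT and 74.1% of those of KO, with 8 higher and 12 lower in both. The shared part of the calls among all genes was not computed, so these percentages are not taken as particular to iron and heme genes. The median log2 fold change was -0.03 in WT and -0.015 in KO, close to that of all genes.

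Among iron uptake genes, 2 of 7 tested rose and 3 fell in WT, and 2 rose and 4 fell in KO. Trf, transferrin itself, the ligand of Tfrc, had 184, 237 and 200 CPM in WT M0 against 790, 874 and 799 in WT M2, and 269, 244 and 257 in KO M0 and 908, 900 and 844 in KO M2. It rose with no overlap, by 1.99 ± 0.09 SE on the log2 scale in WT (edgeR adjusted p = 9.81e-10) and by 1.79 ± 0.08 in KO (edgeR adjusted p = 2.22e-09). Hfe, which binds the transferrin receptor, rose by 0.93 ± 0.08 in WT and 0.98 ± 0.09 in KO (edgeR adjusted p = 3.31e-07 and 2.82e-06). Slc39a8, a zinc, manganese and iron importer, fell from a mean of 20.8 to 6.38 CPM in WT and from 22.3 to 9.38 in KO, with log2 fold changes of -1.71 ± 0.14 SE and -1.25 ± 0.13 (edgeR adjusted p = 2.78e-07 and 6.00e-06).

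Of heme synthesis genes, 1 of 10 tested rose and 1 fell in WT, and 1 of 11 rose and 1 fell in KO. The gene that rose was Alas1, the rate-limiting enzyme outside red cells. It had 95.0, 90.5 and 98.1 CPM in WT M0 against 401, 386 and 529 in WT M2, and 117, 103 and 111 in KO M0 and 359, 385 and 373 in KO M2. The groups did not overlap, and the rise was 4.65-fold in WT (log2 fold change 2.22 ± 0.11 SE, edgeR adjusted p = 1.67e-09) and 3.38-fold in KO (1.76 ± 0.08, edgeR adjusted p = 3.76e-09). In heme breakdown, 1 of 2 tested genes fell in WT and 2 of 2 in KO, where 21.8% and 18.1% of all genes were called lower. With 2 genes, this list is too short to be set against those shares. In heme transport, 2 of 6 rose and 2 fell in WT, and 1 rose and 1 fell in KO.

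Of the 13 mitochondrial iron and iron-sulfur cluster genes, all tested, 3 rose and 3 fell in WT, and 2 rose and 5 fell in KO. Slc25a37, mitoferrin 1, which imports iron into mitochondria, had 261, 248 and 261 CPM in WT M0 against 93.5, 86.6 and 91.7 in WT M2, and 303, 273 and 282 in KO M0 and 88.8, 87.3 and 90.3 in KO M2. All M2 libraries were far below all M0 libraries. It fell by 1.50 ± 0.06 SE on the log2 scale in WT (edgeR adjusted p = 5.34e-10) and by 1.69 ± 0.08 in KO (edgeR adjusted p = 4.20e-09). Iscu, which holds the miR-210 site shown above, had 39.0, 31.8 and 39.4 CPM in WT M0 and 48.9, 43.1 and 40.5 in KO M0, without overlap, and 47.0, 53.4 and 43.5 in WT M2 and 54.4, 59.8 and 47.3 in KO M2, with overlap. KO against WT was not called, at a log2 fold change of 0.27 ± 0.11 SE in M0 and 0.17 ± 0.09 in M2 (edgeR adjusted p = 0.436 and 0.571). With IL-4 it rose by 0.40 ± 0.10 in WT (edgeR adjusted p = 0.00568) and was not called in KO, at 0.29 ± 0.11 (edgeR adjusted p = 0.0541), with an interaction of -0.10 ± 0.16 (edgeR adjusted p = 0.899).

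In the list of iron storage and chaperone genes, 2 of 3 tested rose in WT and 3 of 3 in KO, and 0 fell. Of all genes, 23.6% were called higher in WT and 18.5% in KO. The 3 tested were Ncoa4, Pcbp1 and Pcbp2, while Ftmt was not tested because of low counts. The ferritin chains Fth1 and Ftl1 are members and did not rise. In the export and hepcidin list only Cp was tested. Cp encodes ceruloplasmin, the ferroxidase that works with ferroportin, and it fell with Slc40a1: it had 23.1, 29.2 and 28.9 CPM in WT M0 against 4.13, 4.21 and 6.19 in WT M2, and 21.4, 23.1 and 21.0 in KO M0 and 4.78, 3.35 and 2.76 in KO M2. All M2 libraries were far below all M0 libraries. The log2 fold change was -2.49 ± 0.16 SE in WT (edgeR adjusted p = 3.11e-08) and -2.59 ± 0.18 in KO (edgeR adjusted p = 1.58e-07). Of the regulators, 2 of 8 rose and 2 fell in WT, and 1 rose and 3 fell in KO. Aco1, which encodes IRP1, rose from a mean of 37.3 to 66.7 CPM in WT and from 37.0 to 70.9 in KO, by 0.84 ± 0.09 and 0.94 ± 0.09 on the log2 scale (edgeR adjusted p = 6.06e-06 and 2.19e-06), unlike Ireb2.

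Between genotypes, 0 of 50 of these genes were called in M0 and 0 of 49 in M2 with edgeR, and 0 of 51 in the interaction, against 10, 3 and 9 at an unadjusted p under 0.05. The DESeq2 Wald test called 0 in all 3. In M0 the 10 are 20% of the 50, where 10% of all genes had such a p. In M2 the 3 are 6.12% of the 49, against 10.7% of all genes. For the interaction the 9 are 17.6% of the 51, against 8.95% of all genes. Without WT M0 library 2, Trf was called higher in KO M0, at a log2 fold change of 0.43 (edgeR adjusted p = 0.0320), against 0.31 ± 0.10 SE with all libraries (edgeR adjusted p = 0.276).

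**Figure D4:**
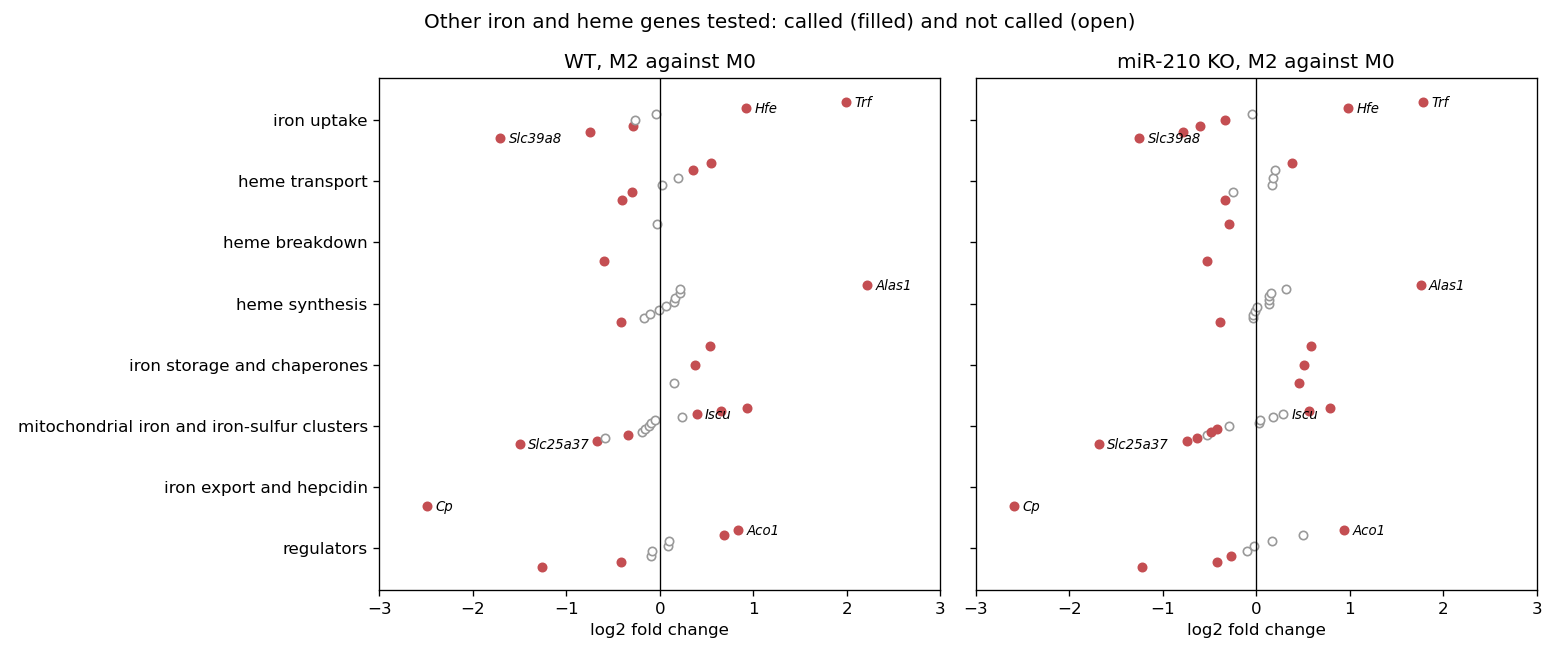
The log2 fold change of M2 against M0 for each of the other iron and heme genes tested, by list, in WT (left) and KO (right). Filled red points are called, and the genes described in the text are named: Trf and Alas1 stand highest and Cp lowest in both genotypes.

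Last, each member was set against the other 14824 genes of the 12-library fit by the Pearson correlation of log2 CPM over the 12 libraries. These libraries form an M0 and an M2 group, so that r follows mainly the difference between them and is given as a description. Slc40a1 was most like Mpeg1 and Aoah (r = 0.997 for both), and 638 genes had r over 0.95. Tfrc was most like Trf and Pdia4 (0.997 for both), and 890 genes had r over 0.95. Steap3 was most like F730311O21Rik (0.996) and Tmem144 (0.994), Slc11a1 like P4ha1 and Slc25a37 (0.994 for both), Hmox1 like Fam219a (0.988) and C030034L19Rik (0.987) and Fth1 like Tcf12 (0.985) and C1rl (0.979). The genes that IL-4 moved least had fewer close companions. Ireb2 (Zzef1 and Huwe1, 0.967 for both) and Blvra (Porcn, 0.957, and Samsn1, 0.955) had 4 genes each over 0.95, and Slc11a2 (Lin54, 0.939, and Plau, 0.926) and Ftl1 (Sf3b5, 0.922, and Lipa, 0.911) had 0.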

How the data were processed

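The 12 libraries were ribosomal RNA-depleted, stranded and sequenced as paired ends. The authors trimmed reads with Trimmomatic, removed duplicate reads with Picard, used STAR for alignment to GRCm39 and featureCounts for strand-specific counts per gene, which were deposited without normalization. Their tables of size-factor normalized values were not used. Removing duplicate reads can lower the counts of abundant short genes such as the ferritins, and reads shared with copies can be lost or split. Symbols came from GENCODE, which matched 56323 of 56941 identifiers.

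All genes were fitted on the 6 libraries of a pair, or on all 12 for the interaction, with edgeR 4.0.16 (R 4.3.3, TMM, filterByExpr, quasi-likelihood test). For polarization, the shares of all genes and the other lists cover protein-coding genes whose average normalized count exceeds 10. The SE is the log2 fold change divided by the square root of F. CPM are TMM-scaled over the 12 libraries, and log2 CPM used a prior count of 2. DESeq2 1.42.0 was an alternative. The scripts were tested on simulated data. Library totals of 7930525 to 10167695 limit the precision of low genes, and no pair of libraries within a group agreed within counting noise (chi-square per gene of 1.89 or more).

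The members and lists were chosen with earlier results of these data known. Named are all members, up to 3 called genes per direction and comparison from the other lists by p, Iscu, the 2 genes most like each member and Mir210. Chosen after their values were seen were Hamp, Alas2, Zbtb46, Fcgr1, Mertk, Itgam, Ncoa4, Pcbp1, Pcbp2 and Ftmt. Other alternatives were no filter, other fold limits, a fit of all libraries, a block, added copies and leaving out each library.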

Additional observations from a re-analysis of the deposited data

How the results depend on the processing

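Of the members' fold changes, 336 of 340 values under alternatives that keep all libraries, and 345 of 360 with 1 library left out, stayed on the same side of the limits in the same direction. Direction turned only for values near 0 that were never called, all on leaving out 1 library: in M0, KO against WT ranged from -0.097 to 0.029 for Fth1 and -0.082 to 0.10 for Aco1, and in M2 from -0.047 to 0.086 for Fth1, -0.048 to 0.072 for Ireb2, -0.0096 to 0.10 for Tfrc and -0.059 to 0.0032 for Slc25a37. IL-4 in WT gave -0.020 to 0.15 for Ftl1, and the interaction -0.011 to 0.13 for Fth1, -0.073 to 0.12 for Hmox1, -0.018 to 0.16 for Aco1 and -0.33 to 0.10 for Cp. The DESeq2 Wald test called 1 member in the interaction, 207 genes in M0 and 83 in the interaction. With no filter on low counts, 532 genes in M0, 360 in M2 and 341 in the interaction were called, with 2 (Trf and Isca1), 1 (Slc39a8) and 3 (Alas1, Isca1 and Hp) of the other iron and heme genes, against 65, 137 and 0 genes and 0 of these with the filter. A fit of all 12 libraries called 248 genes in M0 and 60 in M2. With 1 library left out, between 20 and 302 genes were called in M0 (20 without WT M0 library 3, 302 without WT M0 library 2, with 0 to 1 of the other iron and heme genes), 53 to 215 in M2 (without KO M2 library 2 and 3) and 0 to 77 in the interaction (77 without KO M0 library 2). The library number as a replicate block gave 284 genes in M0 and 289 in M2, and it ended 1 member call, that of Blvra in KO (adjusted p = 0.0801). Same-numbered libraries of 2 groups correlated in their deviations between -0.268 and 0.336, not over 0.1 for every pair of any comparison, and in no comparison did every library correlate best with its own number, so the numbers were not taken to pair the libraries. At 3 libraries a group, a p that misses the limit does not show that values did not differ.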
